A study of Mus musculus with 12 samples.

Results

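The transcripts of 10 heat shock and chaperone genes are described in regulatory T cell (Treg) libraries from Hepa1-6 tumors and from tumor-free lymph nodes. The 10 genes (Hspa1a, Hspa1b, Hspa8, Hsp90aa1, Hsph1, Dnajb1, Hspb1, Hspb8, Hspd1 and Hspe1) were taken by name from the 55413 genes of the count and FPKM tables. All 10 passed the filter on low counts that left 15705 genes for testing. The mouse study moved sorted T cells into TCRbd-/- hosts, which lack T cells of their own and keep other leukocytes. CD45.1 Foxp3YFP-cre mice gave the tTreg cells (by usual naming, thymus-derived), while CD45.2 Foxp3YFP-cre mice gave CD8+ and conventional Foxp3- CD4+ T cells, mixed at 1 tTreg to 10 CD4+ to 8 CD8+. Hepa1-6, a mouse hepatoma line, was inoculated 3 days after the transfer, and tumors were taken at day 18.

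The tumor pTreg group (peripherally derived Treg) has 3 libraries and the tumor tTreg group 5, both sorted from CD4+ T cells after isolation of tumor-infiltrating lymphocytes. The LN Treg group has 4 libraries of total Treg from lymph nodes of untreated, tumor-free mice. Every label gives the same genotype entry, Foxp3YFP-cre and TCRbd-/- mice, for all 12 libraries. The labels do not say that libraries of a group came from separate animals, so p-values measure the spread between libraries, which may be technical. Tumor and lymph node cells also went through different isolation, so tissue and handling cannot be told apart.

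Heat shock proteins are molecular chaperones, proteins that help others fold and keep damaged ones from clumping. HSP70 proteins bind exposed stretches of unfolded clients, J-domain proteins such as DNAJB1 hand clients over and start the HSP70 cycle, and HSP110 proteins such as HSPH1 reset it by nucleotide exchange. HSP90 finishes the folding of kinases and receptors, small heat shock proteins hold unfolded clients, and HSP60 (Hspd1) with its lid HSP10 (Hspe1) forms a folding chamber in mitochondria. Many of these genes are switched on by heat shock factor 1 (HSF1), which binds inverted GAA and TTC units in promoters.

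Promoters are shown first because HSF1 sites are what many of these genes are known to share. The choice by name did not read promoter letters. It did take known heat shock genes, so their share of such sites is no separate finding. RefSeq start-site windows (GRCm38.p6, from 250 bases before to 50 after each start) were at hand for 8 of the 10 genes, all but Hspa8 and Hsp90aa1. Each was searched for GAANNTTC and TTCNNGAA, 8-letter pairs that read the same on both strands. The 150 bases before the start are printed for 4 genes, with the units of each pair in capitals. Hspa1a stands for the inducible HSP70 pair, and Hsph1 for its exchange factor. Hspe1 shares its site with Hspd1, and Hspb8 had no read in LN Treg.
Hspa1a, chr17:34972157-34972306, minus strand: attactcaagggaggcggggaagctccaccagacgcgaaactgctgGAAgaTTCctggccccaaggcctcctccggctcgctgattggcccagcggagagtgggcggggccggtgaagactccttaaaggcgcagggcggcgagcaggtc
Hsph1, chr5:149636316-149636465, minus strand, second listed start: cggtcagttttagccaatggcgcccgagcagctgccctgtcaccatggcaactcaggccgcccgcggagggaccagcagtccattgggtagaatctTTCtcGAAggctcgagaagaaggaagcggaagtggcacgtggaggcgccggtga
Hspe1, chr1:55087998-55088147, plus strand: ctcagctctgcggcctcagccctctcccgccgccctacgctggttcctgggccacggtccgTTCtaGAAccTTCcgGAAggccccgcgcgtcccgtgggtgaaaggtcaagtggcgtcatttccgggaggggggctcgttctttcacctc
Hspb8, chr5:116422865-116423014, minus strand: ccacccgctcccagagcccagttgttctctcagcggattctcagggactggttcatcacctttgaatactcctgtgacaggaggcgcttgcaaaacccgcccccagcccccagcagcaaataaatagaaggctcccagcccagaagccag

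Of the 8 genes with a window, 7 held at least 1 pair, all but Dnajb1. A pair was present in 15.1% of all 32817 distinct windows, or at any listed start of 17.0% of 27025 genes. At least 3 alternating units in a row were present in Hsph1, Hspd1 and Hspe1, against 0.603% of all windows and 0.662% of genes. In Hspa1a and Hspa1b the pair lay 104 to 97 bases before the start, and the 150 bases before the start differed at 1 position between these 2 genes. The run of units in Hspe1, at chr1:55088059-55088076, lies 89 to 72 bases before its start, and the same bases fall in the window of the second listed start of Hspd1. The run in Hsph1 lies 16 to 28 bases after its second start, so that only a single upstream pair stands in the printed stretch. The only pair of Hspb8 lies 3 to 10 bases after its start, outside the printed stretch. Hspb1 held 2 pairs, starting 117 and 97 bases before its start. A match describes letters and does not show binding, and genes on both sides of the tumor comparison below held one.

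Library totals ran from 14573864 to 17323894 counts in LN Treg, from 17964262 to 18180959 in tumor pTreg and from 18107272 to 18510923 in tumor tTreg. Levels are given as CPM, counts scaled to a common library total, or as FPKM, which also divides by transcript length, where genes are compared with each other. Fold changes come from edgeR's quasi-likelihood test with TMM scaling, and a gene is called at a Benjamini-Hochberg adjusted p below 0.05 over all genes tested. The labelled cell type was checked against its markers. The summed CPM of 17 pan-T genes, all of them with counts in every group, ran from 6150 to 6322 in LN Treg, from 1288 to 1312 in tumor pTreg and from 127 to 134 in tumor tTreg, and the mean CPM of Foxp3 was 441, 20.3 and 8.74 in that order. The summed CPM of 12 hepatoma or hepatocyte genes ran from 7.61 to 9.65, from 5386 to 5755 and from 7957 to 8306 in the same order, although Apoa2 and Fgb were at 0 in LN Treg and Serpina1a in the tumor groups. Of these 12 genes only 6 passed the filter on low counts. Apoa1, Apoa2, Apob, Ttr and Ahsg stayed near 0 in both tumor groups (mean CPM in tumor tTreg 0.17, 0.23, 0.42, 0.17 and 0.05). The summed CPM of 11 macrophage genes ran from 34.7 to 42.4, from 6171 to 6214 and from 6248 to 6591. That of 9 fibroblast genes ran from 2.18 to 4.73 (Col3a1, Lum and Pdgfra at 0), from 138 to 158 and from 677 to 803. That of 5 CD8 T cell and NK cell genes ran from 19.3 to 24.5, from 32.2 to 35.2 (Ncr1 at 0) and from 1.97 to 2.74. Within it the mean CPM of Cd8a was 8.24, 23.6 and 0.67, and that of Cd8b1 12.8, 9.22 and 0.44. In bulk RNA, fewer cells of a type and less RNA per cell cannot be told apart, and the part of these markers in the results below was not tested.

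**Figure D1:**
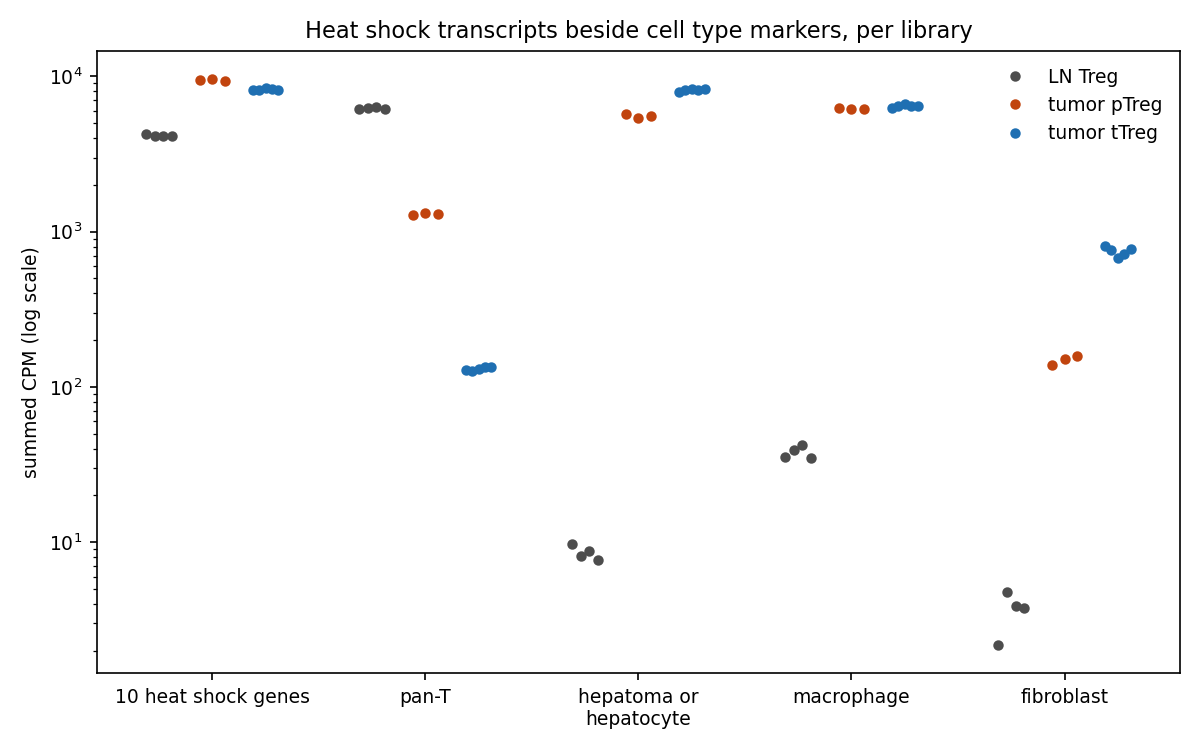
Summed CPM (log scale) of the 10 heat shock genes and of 4 marker lists, 1 point per library. The heat shock sum lies near 4164 in LN Treg and between 8172 and 9613 in the tumor libraries, while the pan-T sum falls from about 6232 in LN Treg to 130 in tumor tTreg.

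Because T cell markers differed so much, the fit was repeated with libraries scaled to the pan-T genes. This moved the median log2 fold change of all genes to -3.33 for tumor pTreg over tumor tTreg, to 2.27 for tumor pTreg over LN Treg and to 5.58 for tumor tTreg over LN Treg. Under pan-T scaling all 10 genes were therefore lower in the pTreg libraries, and all stayed higher in both tumor groups than in LN Treg. Measured from that median, Hspa1a stood 0.68 higher in tumor pTreg than in tumor tTreg under both scalings. That match follows from rescaling, which shifts all genes by nearly the same amount, and is no separate check. Directions below are for TMM scaling, that is, relative to the bulk of genes in each library.

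Together the 10 transcripts made up 0.416% of counts in LN Treg, 0.952% for tumor pTreg and 0.825% for tumor tTreg. Their summed CPM was 4164 ± 46.7 (SD, n = 4), 9515 ± 107 (n = 3) and 8250 ± 128 (n = 5). All 10 were called higher than in LN Treg in each tumor group. The 10 were chosen with earlier results of these data known, so this count is no independent test. Of all genes tested, 47.6% were called higher and 39.8% lower in tumor pTreg, and 48.1% higher and 42.3% lower in tumor tTreg. Hspb8, with no LN read, passed the filter only through the tumor groups, so its call adds nothing to that count. The median log2 fold change of the 10 was 1.74 and 1.72, beside 0.12 and 0.10 over all genes, and the medians were the same with Hspb8 at its lower bound. Those comparisons share the LN libraries. Between the tumor groups, 6 of the 10 were called higher in tumor pTreg (26.8% of all genes were) and 3 lower (25.3%), and all 6 turned lower under pan-T scaling. The median of the 10 in that comparison was 0.13, beside -0.01 over all genes. The 6 were Hspa1a, Hspa1b, Hspa8, Hsph1, Hsp90aa1 and Dnajb1, and the 3 were Hspb8, Hspd1 and Hspe1. The pan-T sum was likewise higher in tumor pTreg, and the hepatoma and fibroblast sums were higher in tumor tTreg. Of the 9 fibroblast genes, 8 were called lower in tumor pTreg under TMM scaling and 1 higher. That 1 was Pdgfrb, with a mean CPM of 3.52 in tumor pTreg and 1.85 in tumor tTreg.

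**Figure D2:**
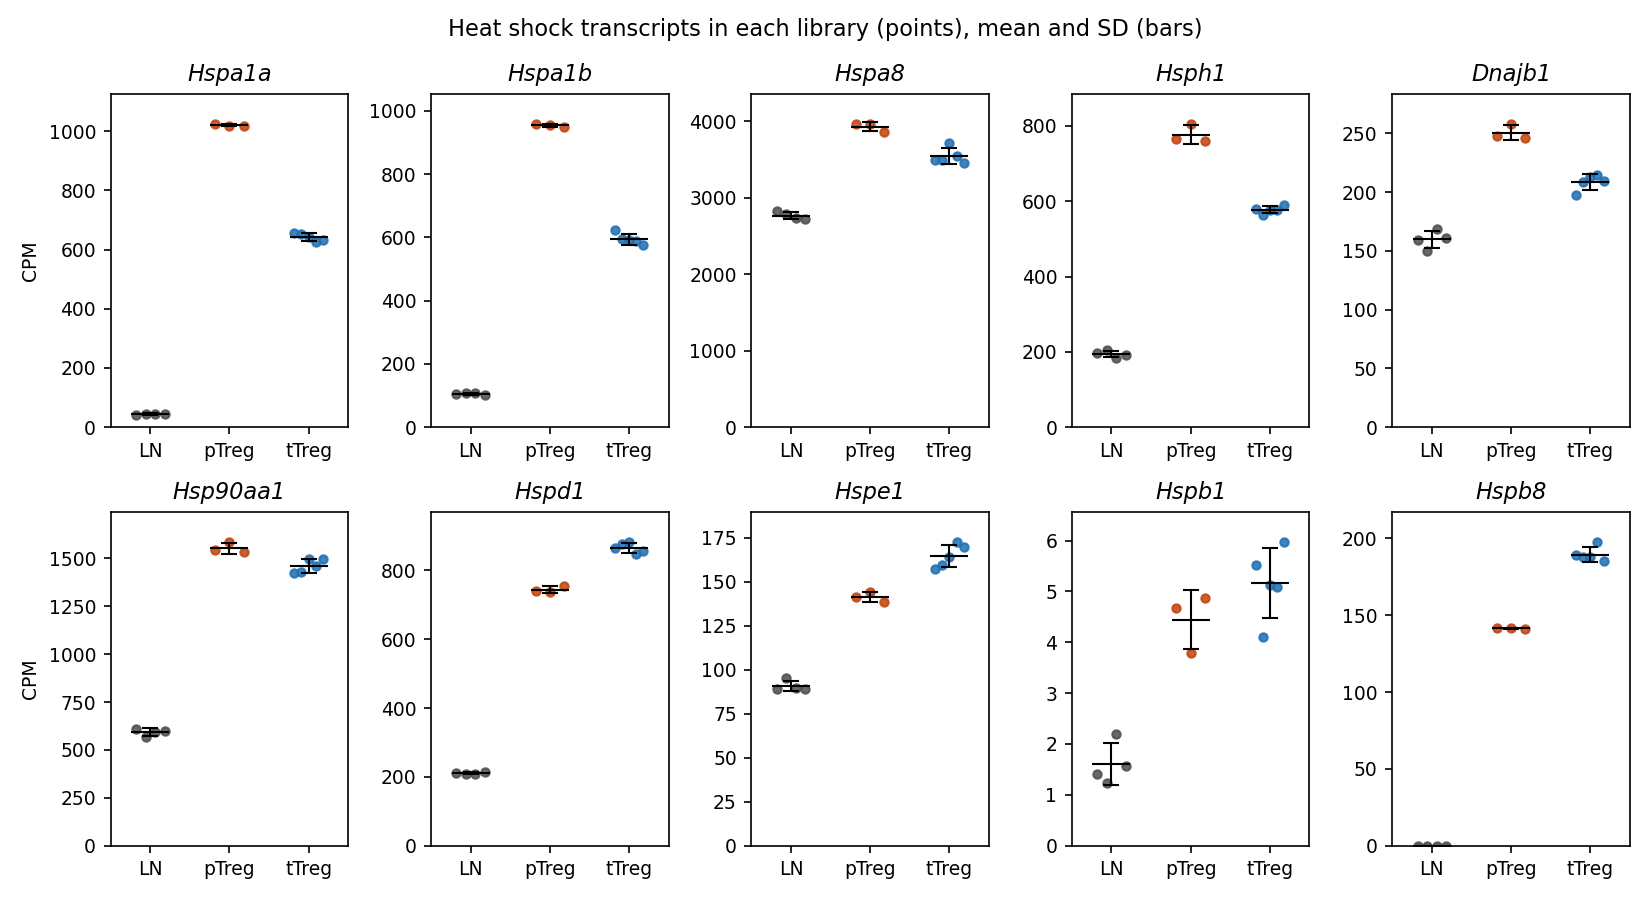
CPM of each gene (vertical axis from 0) in every library, with bars at the group mean and its SD. The groups are 4 LN Treg, 3 tumor pTreg and 5 tumor tTreg libraries. By CPM Hspa1a, Hspa1b, Hsph1, Dnajb1, Hspa8 and Hsp90aa1 peak in tumor pTreg and Hspd1, Hspe1 and Hspb8 in tumor tTreg, whereas under pan-T scaling all 10 are lower in tumor pTreg.

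Hspa1a (ENSMUSG00000091971.3, chr17:34969190-34972156, minus strand) encodes the stress-inducible HSP70. Its CPM was 40.1, 45.9, 43.0 and 46.1 in the 4 LN Treg libraries, 1025, 1019 and 1018 across tumor pTreg, and 656, 654, 643, 626 and 633 across tumor tTreg. All LN libraries were low, all pTreg libraries were high, and no groups overlapped. Lack of overlap was common in these data. Of 15705 genes tested, 13493 did not overlap between tumor pTreg and LN Treg. For tumor tTreg and LN Treg the number was 13378, and for the tumor groups 7613. Hspa1a was 25.1-fold higher in tumor pTreg than in LN Treg (edgeR quasi-likelihood, Benjamini-Hochberg adjusted p = 4.57e-36) and 15.7-fold higher in tumor tTreg than in LN Treg (adjusted p = 1.71e-35). Tumor pTreg exceeded tumor tTreg 1.60-fold (log2 0.68 ± 0.029 SE, edgeR adjusted p = 1.29e-17), a direction that turned under pan-T scaling (log2 -2.65).

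Hspa1b (ENSMUSG00000090877.3, chr17:34956436-34959238, minus strand) is the neighbouring copy, 9951 bases away. Its CPM was 103, 109, 107 and 102 in LN Treg, 959, 956 and 948 across tumor pTreg, and 622, 595, 591, 588 and 576 across tumor tTreg. The order of the groups was that of Hspa1a, again without overlap. Hspa1b was 9.75-fold higher in tumor pTreg and 6.04-fold higher in tumor tTreg than in LN Treg, and 1.61-fold higher in tumor pTreg than in tumor tTreg (log2 0.69, edgeR adjusted p = 1.35e-18; -2.63 under pan-T scaling). The coding sequences of Hspa1a and Hspa1b are 99.4% identical, and 47.1% of the 100-base stretches of the Hspa1a transcript occur in that of Hspa1b, so how reads were split between them is uncertain. With both genes summed, the log2 fold change over LN Treg was 3.83 for tumor pTreg and 3.15 for tumor tTreg.

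Hspa8 (ENSMUSG00000015656.17, chr9:40800984-40810087, plus strand), the constitutive HSP70, was the most abundant of the 10 per length in every group. Its CPM was 2820, 2780, 2739 and 2724 in LN Treg, 3965, 3964 and 3857 across tumor pTreg, and 3495, 3488, 3715, 3548 and 3456 across tumor tTreg. The groups kept apart, but by far less than for the inducible copies. The log2 fold change was 0.61 for tumor pTreg and 0.45 for tumor tTreg over LN Treg, and 0.16 ± 0.031 for tumor pTreg over tumor tTreg (edgeR adjusted p = 1.09e-04; -3.17 under pan-T scaling).

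Within a library, the FPKM ratio of Hspa1a plus Hspa1b to Hspa8 compares inducible with constitutive HSP70 and does not depend on how libraries are scaled. It was 0.0410, 0.0447, 0.0435 and 0.0429 in LN Treg, 0.395, 0.393 and 0.388 across tumor pTreg, and 0.283, 0.282, 0.257, 0.270 and 0.280 across tumor tTreg. The 3 groups did not overlap: inducible transcripts were a few percent of the constitutive one in LN Treg and a far larger share of it in every tumor library. The log2 ratio was 0.51 higher in tumor pTreg than in tumor tTreg (exact two-sided permutation p = 0.0357, the smallest that 3 against 5 libraries allow, and 0.0642 adjusted over 9 ratio tests). It was 3.19 higher in tumor pTreg than in LN Treg (exact p = 0.0571, the smallest possible there, adjusted 0.0642) and 2.67 higher in tumor tTreg than in LN Treg (exact p = 0.0159, the smallest possible, adjusted 0.0477).

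Hsph1 (ENSMUSG00000029657.15, chr5:149614287-149636376, minus strand), the HSP110 exchange factor of HSP70, had a CPM of 196, 205, 185 and 191 in LN Treg, 766, 806 and 759 across tumor pTreg, and 580, 564, 576, 578 and 589 across tumor tTreg. Every pTreg library was above every tTreg library, and both were above LN Treg. Hsph1 was 4.30-fold higher in tumor pTreg and 3.18-fold higher in tumor tTreg than in LN Treg. Between the tumor groups the log2 fold change was 0.44 ± 0.030 (edgeR adjusted p = 5.89e-13; -2.89 under pan-T scaling).

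Dnajb1 (ENSMUSG00000005483.10, chr8:83608193-83612653, plus strand) encodes the inducible J-domain partner of HSP70. Its CPM was 159, 150, 168 and 161 in LN Treg, 248, 258 and 246 across tumor pTreg, and 198, 209, 213, 214 and 210 across tumor tTreg. The groups did not overlap, although the steps between them were small beside those of Hspa1a. Dnajb1 was 1.68-fold higher in tumor pTreg than in LN Treg, and its log2 fold change over tumor tTreg was 0.27 ± 0.034 (edgeR adjusted p = 9.32e-08; -3.05 under pan-T scaling).

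Hsp90aa1 (ENSMUSG00000021270.13, chr12:110690605-110702728, minus strand), the inducible cytosolic HSP90, had a CPM of 611, 566, 593 and 601 in LN Treg, 1542, 1584 and 1532 across tumor pTreg, and 1422, 1431, 1498, 1459 and 1495 across tumor tTreg. The tumor libraries stood well above LN Treg, with folds of 2.82 and 2.64, and close to each other. The log2 fold change of 0.09 ± 0.031 between the tumor groups was called (edgeR adjusted p = 0.0128; -3.23 under pan-T scaling). That call was lost with DESeq2 (adjusted p = 0.112), with RLE size factors in edgeR (0.168), on log2(FPKM + 1) with limma (0.292) and without pTreg replicate 2 (0.0581).

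Hsp90ab1, the constitutive HSP90 and not 1 of the 10, had a mean CPM of 2095 in LN Treg, 2874 across tumor pTreg and 2895 across tumor tTreg, and was not called between the tumor groups (log2 -0.00, edgeR adjusted p = 0.945). The FPKM ratio of Hsp90aa1 to Hsp90ab1 was 0.262, 0.241, 0.254 and 0.245 in LN Treg, 0.458, 0.469 and 0.465 across tumor pTreg, and 0.434, 0.422, 0.444, 0.451 and 0.455 across tumor tTreg. The tumor groups nearly touched, while LN Treg lay far lower. The log2 ratio was 0.07 higher in tumor pTreg than in tumor tTreg (exact permutation p = 0.0357, the smallest possible, adjusted 0.0642), 0.89 higher than in LN Treg (exact p = 0.0571, adjusted 0.0642), and 0.82 higher in tumor tTreg than in LN Treg (exact p = 0.0159, adjusted 0.0477).

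**Figure D3:**
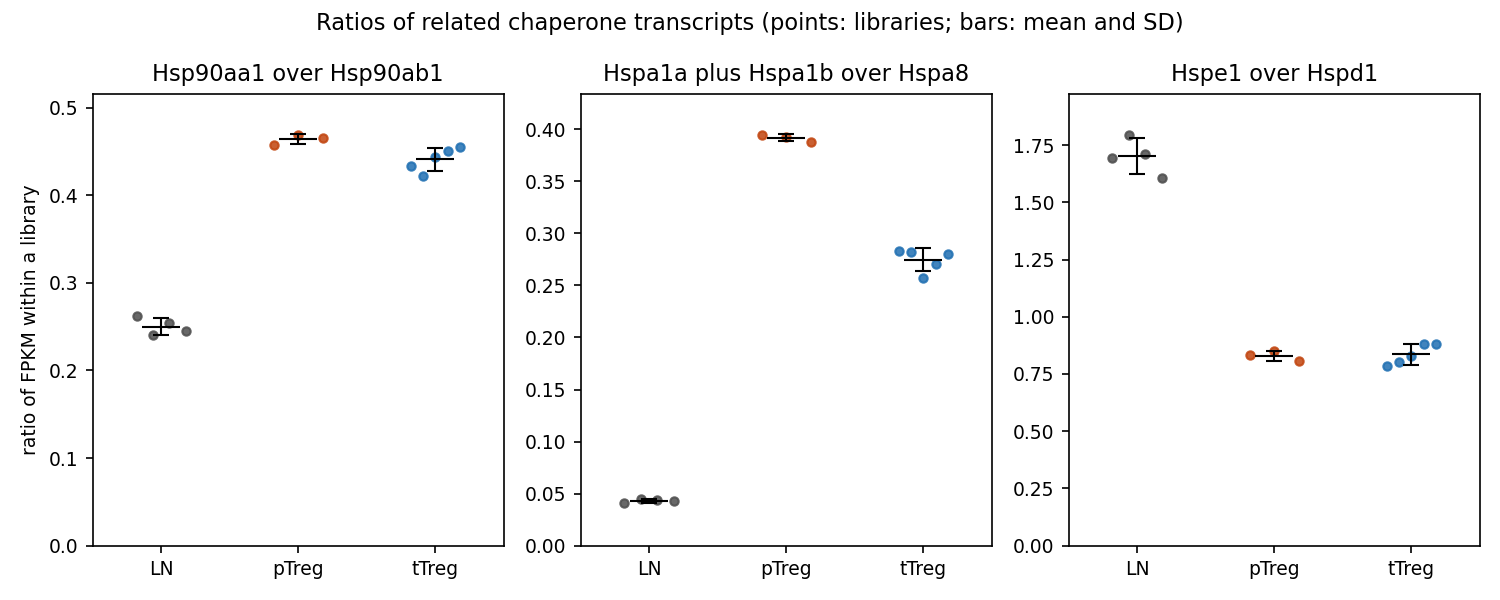
Ratio of FPKM within each library (vertical axes from 0) for 3 pairs of related transcripts, with bars at the group mean and SD. The inducible to constitutive HSP70 ratio rises from about 0.0430 in LN Treg to 0.275 in tumor tTreg and 0.392 in tumor pTreg, and the Hspe1 to Hspd1 ratio is near 1.70 in LN Treg and below 0.9 in every tumor library.

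Hspd1 (ENSMUSG00000025980.14, chr1:55077835-55088243, minus strand) encodes the mitochondrial chaperonin HSP60. Its CPM was 212, 208, 208 and 214 in LN Treg, 740, 737 and 755 across tumor pTreg, and 867, 878, 882, 848 and 857 across tumor tTreg. Here the tTreg libraries were the highest, with no overlap. Hspd1 was 3.80-fold higher in tumor pTreg and 4.40-fold higher in tumor tTreg than in LN Treg, and its log2 fold change for tumor pTreg over tumor tTreg was -0.21 ± 0.027 (edgeR adjusted p = 1.69e-07).

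Hspe1 (ENSMUSG00000073676.4, chr1:55088132-55091307, plus strand) encodes HSP10, the lid of the HSP60 chamber, and its annotated gene overlaps Hspd1 head to head by 112 bases. Its CPM was 89.2, 95.2, 89.6 and 89.1 in LN Treg, 141, 144 and 138 across tumor pTreg, and 157, 160, 164, 172 and 170 across tumor tTreg. The groups followed the order of Hspd1, over a narrower range. The log2 fold change was 0.74 for tumor pTreg and 0.96 for tumor tTreg over LN Treg, and -0.21 ± 0.034 between the tumor groups (edgeR adjusted p = 4.51e-06). The sources used here do not say whether counting used strand, so reads in the overlap could belong to either gene.

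The Hspe1 to Hspd1 FPKM ratio was 1.69, 1.80, 1.71 and 1.61 in LN Treg, 0.832, 0.850 and 0.805 across tumor pTreg, and 0.785, 0.803, 0.828, 0.882 and 0.882 across tumor tTreg. The tumor groups overlapped, and LN Treg was above both. The log2 ratio for Hspe1 and Hspd1 differed by -0.01 between the tumor groups (exact permutation p = 0.821, adjusted 0.821). It was lower by 1.04 in tumor pTreg (log2 difference -1.04, exact p = 0.0571, adjusted 0.0642) and by about as much in tumor tTreg (-1.03, exact p = 0.0159, adjusted 0.0477) than in LN Treg.

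Hspb8 (ENSMUSG00000041548.4, chr5:116408491-116422864, minus strand) encodes a small heat shock protein that works with BAG3 in selective autophagy of misfolded clients. No LN Treg library had a single read. Its CPM was 142, 142 and 141 across tumor pTreg, and 189, 188, 188, 197 and 185 across tumor tTreg. With LN Treg at the limit that a count of 0 allows, 3 counts over the group or 0.0454 CPM, Hspb8 was at least 3120-fold higher in tumor pTreg and at least 4180-fold higher in tumor tTreg. Between the tumor groups its log2 fold change was -0.41 ± 0.031 (edgeR adjusted p = 1.56e-11), and the sums of hepatoma and fibroblast markers were likewise higher in tumor tTreg. The part of those markers in the Hspb8 difference was not tested.

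Hspb1 (ENSMUSG00000004951.10, chr5:135887919-135889563, plus strand), which encodes a stress-inducible small heat shock protein, was the scarcest of the 10 in the tumor libraries. Its CPM was 1.41, 1.24, 2.19 and 1.57 in LN Treg, 4.68, 3.79 and 4.87 across tumor pTreg, and 5.53, 4.10, 5.13, 5.09 and 5.96 across tumor tTreg, resting on 18 to 108 counts a library. The tumor groups overlapped and LN Treg lay below both. Hspb1 was 2.95-fold higher in tumor pTreg (edgeR adjusted p = 5.87e-09) and 3.40-fold higher in tumor tTreg than in LN Treg (adjusted p = 2.44e-11). The tumor pTreg to tTreg difference of -0.21 ± 0.136 was not called (edgeR adjusted p = 0.208).

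**Figure D4:**
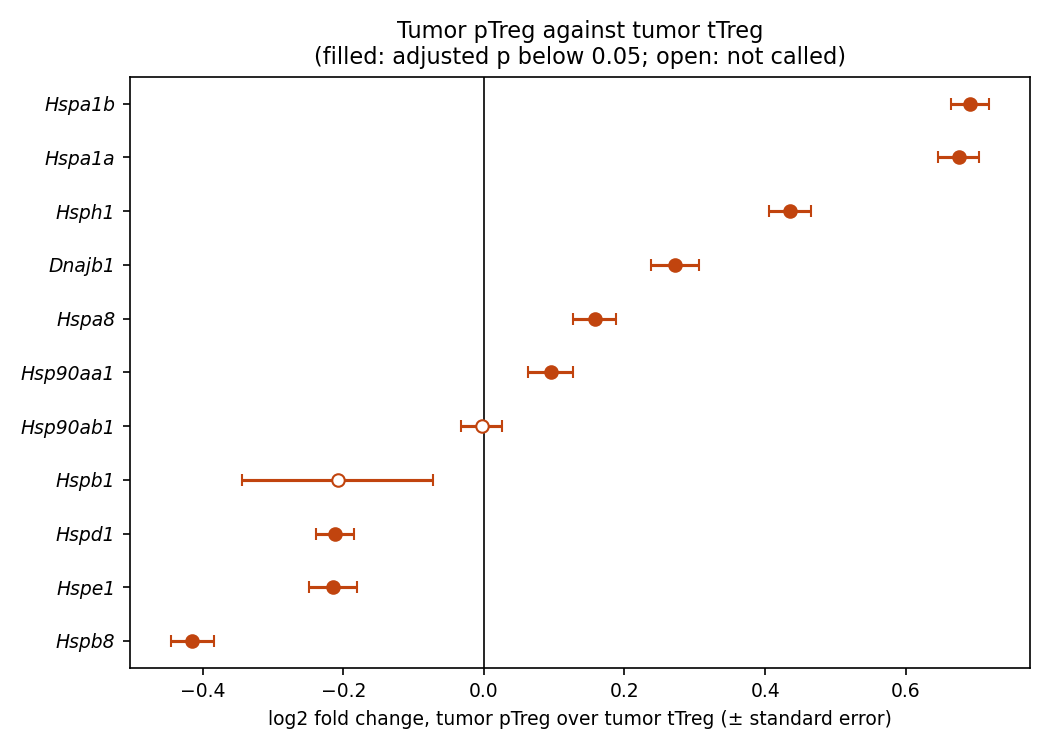
Log2 fold change of tumor pTreg over tumor tTreg (horizontal axis, bars are standard errors) for the 10 genes and Hsp90ab1 under TMM scaling. Hspa1b and Hspa1a stand highest at 0.69 and 0.68 and Hspb8 lowest at -0.41. Hspb1, Hspb8, Hspd1, Hspe1 and, barely, Hsp90ab1 lie below 0 already, and pan-T scaling moves the other points below 0 as well.

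Per length, the members differed widely in level. In LN Treg the mean FPKM ran from 1361 for Hspa8, 258 for Hsp90aa1, 193 for Hspe1, 113 for Hspd1, 96.2 for Hsph1, 59.3 for Dnajb1, 42.1 for Hspa1b and 16.4 for Hspa1a down to 2.7 for Hspb1 and 0 for Hspb8. In LN Treg no neighbours in that order overlapped between libraries. In tumor pTreg the order was Hspa8 (1950), Hsp90aa1 (623), Hsph1 (425), Hspa1a (383), Hspa1b (381), Hspd1 (361), Hspe1 (299), Hspb8 (93.7), Dnajb1 (93.0) and Hspb1 (7.50). There Hspa1a could not be placed above Hspa1b, nor Hspb8 above Dnajb1, beyond their spread. In tumor tTreg Hspd1 (418) and Hspe1 (349) stood above Hsph1 (305), Hspa1a (241) and Hspa1b (238), and only Hspa1a and Hspa1b overlapped. Hspa1a moved from the eighth place of the 10 in LN Treg to the fourth in tumor pTreg.

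The profile of Hspa8 over the 12 libraries was closest to that of Dnajb1, with a root mean square difference of 0.0756 between centred log2 CPM, the smallest of any pair of the 10. Outside the 10, among 9320 genes compared over 12 libraries, Hip1 was nearest to Hspa1a (0.102) and Ell2 to Hspa1b (0.129). Myo1f (0.062) and the immediate-early gene Fosb (0.0759) were nearest to Hsph1, and Rgs2 to Dnajb1 (0.0346). Slc29a3 was nearest to Hspa8 (0.0344), Trafd1 to Hsp90aa1 (0.0402), Ywhag to Hspd1 (0.0336), Psmb7 to Hspe1 (0.0442) and Cep290 to Hspb1 (0.159). Lncenc1 (0.0554) and Ceacam2 (0.0604) were nearest to Hspb8. These distances describe likeness over 3 groups and carry no test.

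Other genes of the chaperone system were counted in lists, some of them shared between lists. Under TMM scaling, 1 of 14 mitochondrial chaperone and protease genes tested was called higher in tumor pTreg than in tumor tTreg and 13 lower, with a median log2 fold change of -0.20 (all genes -0.01), while under pan-T scaling nearly all genes were lower in tumor pTreg. Besides Hspd1 and Hspe1, the lower ones held Hspa9, the mitochondrial HSP70 (log2 -0.15), and the protease gene Htra2 (-0.30). Hscb, an iron-sulfur cluster J-domain protein named after its value was seen, was the higher one (0.26, turned under pan-T scaling like the other higher calls). Of the 14 TRiC and prefoldin genes, which fold actin and tubulin, 9 were lower and 1 higher (median -0.14), Cct5 at -0.27 and Cct6a at -0.21 among the lower. Of 23 endoplasmic reticulum chaperone and stress genes, 11 were lower and 5 higher (median -0.14).

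The other lists were mixed under TMM scaling, and the higher calls of all of them turned lower under pan-T scaling. Of 14 HSP70 and HSP110 genes tested, 6 were higher in tumor pTreg and 1 lower (median 0.08), and 3 of the 6 are Hspa1a, Hspa1b and Hspa8. Of 35 J-domain genes, 14 were higher and 5 lower (median 0.05). Dnaja4, a J-domain partner of HSP70, had a mean CPM of 33.9 in LN Treg, 16.0 across tumor pTreg and 2.35 across tumor tTreg, a log2 fold change of 2.77 between the tumor groups in the direction of the pan-T sum, whose part was not tested. The HSP90 cochaperone list had 7 higher and 5 lower of 15 (median 0.08), with Fkbp4 at -0.34 and Chordc1 at 0.32. Of the 4 HSP90 genes 1 was higher and 2 lower (median -0.11), of 11 HSP70 exchange factor genes 1 was higher and 4 lower (median -0.08), and of 5 small heat shock genes tested none was higher and 2 were lower, Hspb8 and Cryab. Of 15 immediate-early genes, which are known to rise within minutes of stimulation, 10 were higher and 3 lower (median 0.15), with Fosb at 0.34 and Atf3 at -0.24. Of the 21 genes listed as HSF1 responses, 9 were higher and 6 lower, with a median of -0.00. Over all 121 tested chaperone-list genes other than the 10, 30 were higher and 45 lower in tumor pTreg (median -0.05), beside 26.8% and 25.3% of all genes.

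**Figure D5:**
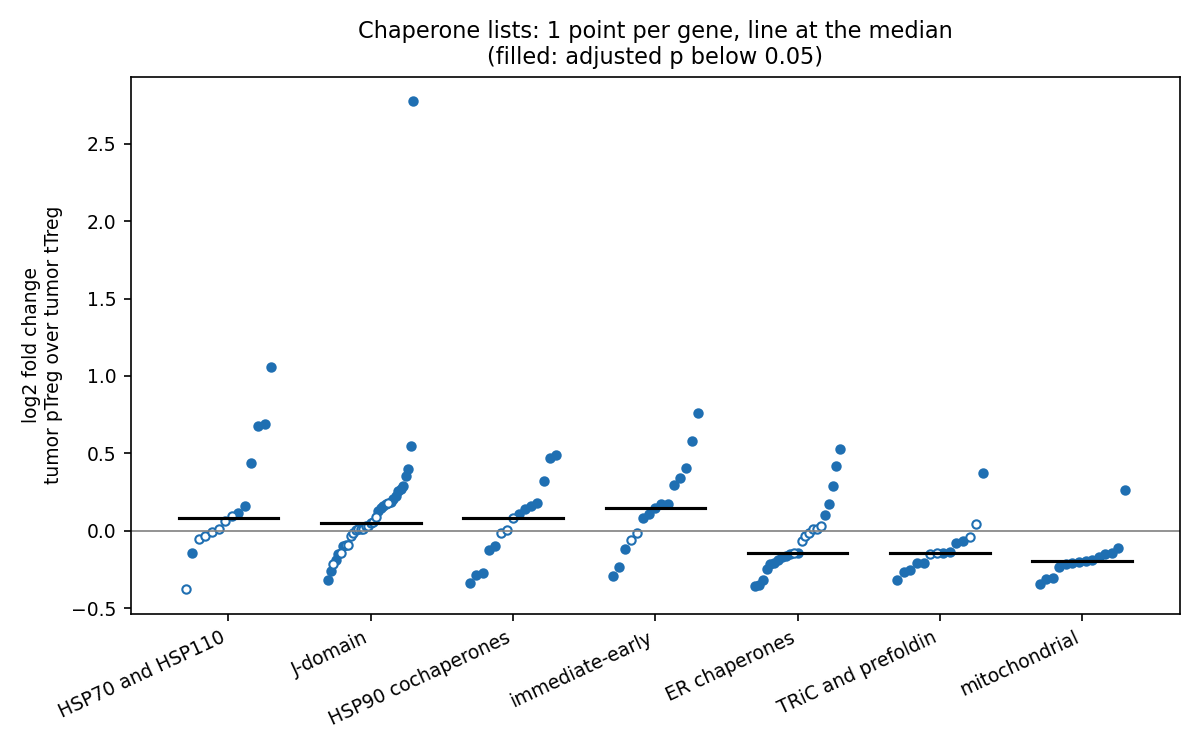
Log2 fold change of tumor pTreg over tumor tTreg under TMM scaling (vertical axis) for each gene of 7 lists, with a line at each median. Of the 14 mitochondrial genes, 13 are lower in tumor pTreg, and the highest point is Dnaja4 at 2.77; pan-T scaling shifts the median of all genes to -3.33 and turns the higher points lower.

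Against LN Treg, 77 of these 121 genes were higher in tumor pTreg and 26 lower (median log2 fold change 0.35), beside 47.6% and 39.8% of all genes tested. In tumor tTreg 77 were higher and 32 lower (median 0.33), beside 48.1% and 42.3% of all genes. Among these genes Hspb2, Cryab and Serpinh1 passed the filter on low counts only through the tumor groups, and Hspa12a only through LN Treg. Their calls add nothing to these counts. The endoplasmic reticulum list had 22 of 23 genes higher in each tumor group (medians 1.41 and 1.53). In it Hspa5, the HSP70 of that compartment, had a mean CPM of 809, 2611 and 2607 in LN Treg, tumor pTreg and tumor tTreg, Hsp90b1 rose by 2.08 in tumor tTreg, and the disulfide isomerase genes P4hb and Pdia6 by 2.69 and 2.52 (log2). Of the 14 HSP70 and HSP110 genes 12 were higher in tumor pTreg, and of the 35 J-domain genes 15 were higher (42.9%) and 12 lower (34.3%), near the shares of all genes. The 15 HSP90 cochaperones had 7 higher (46.7%) and 5 lower (33.3%) in tumor pTreg, also near those shares, among them Fkbp4 at 1.47 and Cdc37l1 at -0.97 in tumor tTreg (4.51 for Cdc37l1 under pan-T scaling). Of 9 small heat shock genes listed, 5 passed the filter on low counts, Hspb8, Hspb2 and Cryab only through the tumor groups, so no count is given for that list. Cryab, a lens crystallin also made in muscle, had a mean CPM of 0.078 in LN Treg, 18.0 across tumor pTreg and 24.7 across tumor tTreg, and Hspb2, at 0 in LN Treg, was at least 11.8-fold higher in tumor pTreg and 14.9-fold in tumor tTreg. Bag3, the HSPB8 partner, rose by 2.78 in tumor pTreg, and the mean CPM of Serpinh1, a collagen chaperone, went from 0.195 in LN Treg to 9.57 for tumor pTreg and 18.0 for tumor tTreg. The mean fibroblast sum took the same order, at 3.64, 149 and 747 CPM, and its part in the Serpinh1 values was not tested.

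Transcripts of the regulators were measured as well. Hsf1 had a mean CPM of 70.4 in LN Treg and 31.1 in both tumor groups, so that it was lower in tumor pTreg (log2 -1.07) and tumor tTreg (-1.08) than in LN Treg by TMM and higher by pan-T scaling (1.08 and 4.40). It was not called between the tumor groups (log2 0.01, edgeR adjusted p = 0.934). Hsf2 was at 29.3, 29.4 and 30.6 CPM in LN Treg, tumor pTreg and tumor tTreg; its call in tumor tTreg over LN Treg (log2 0.16, edgeR adjusted p = 0.00337) was lost in 4 of 22 alternatives: with library totals only (adjusted p = 0.215) and in the 3 limma fits on log2 FPKM (0.234 to 0.242). Hsbp1, which encodes an HSF1-binding protein, had a mean CPM of 49.4, 66.8 and 71.5, and its call between the tumor groups (log2 -0.09, edgeR adjusted p = 0.047) was lost in 10 of 22 alternatives, pan-T scaling aside. HSF1 is known to be controlled mainly as a protein, which was not measured here.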

How the data were processed

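Bulk RNA-seq was made from total RNA (TRIzol, BGISEQ-500) of 12 libraries, per the labels' protocols. Per the submitters' processing notes, the authors used STAR 2.7.11a and RSEM 1.3.3 on GRCm38/mm10, and DESeq2 is also named; roles and annotation are not given in the notes used. The deposited expected counts per gene were already whole numbers. The deposited FPKM values, made by the authors, are scaled by transcript length and library. The replicates were not merged.

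Library groups came from the titles. Counts were tested with edgeR 4.0.16 (quasi-likelihood, TMM factors, filterByExpr by group, 1 fit over 12 libraries, no covariate), which left 15705 of 27279 genes with any count. P-values were adjusted by Benjamini-Hochberg, with calls at 0.05, and the standard error is the size of the log2 fold change over the root of the F value. CPM uses library totals, while fold changes also use TMM factors. Ratios of FPKM were compared with exact permutation tests (scipy 1.17.1). Replicates of a group differed by more than sampling noise (chi-square over degrees of freedom from 1.65 to 3.97), so none was taken as a copy of another. This check cannot tell technical from biological replicates. Alternatives were RLE factors, library totals, pan-T scaling, other filters, DESeq2 1.42.0, limma 3.58.1 on log2 FPKM, each library left out in turn, and a replicate block. The test was tried on simulated data. The 10 genes, the gene lists and the markers were chosen with earlier results of these data known. Genes outside the 10 were named as the most abundant and up to 3 of the most changed of each list, with HSF genes, Hsp90ab1 and the 3 nearest profiles set by rule; not all are printed.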

Additional observations from a re-analysis of the deposited data

Results flagged for a closer look

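The Hspe1 level of LN Treg replicate 2, 95.17 CPM, lay far from the other 3 LN libraries relative to the group's whole range. It was the only such sample in 25 groups of 4 or 5 libraries tested over the 10 genes and 3 ratios, where chance gives about 1 in 20. That library is the shallowest of the 12, with 14573864 counts, and it stays far below all tumor libraries for Hspe1.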

How the results depend on the processing

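Leaving pan-T scaling aside, 657 of 663 alternative values for the 10 genes kept their direction and their side of the threshold, and the other 6 were all Hsp90aa1 between the tumor groups, where the call was lost. Among the other named genes 793 of 808 kept both, 14 lost a call and 1 gained one. Scaling to pan-T genes called 15327 genes between the tumor groups, with 0 of the 10 higher and 10 lower in tumor pTreg. It turned the log2 fold changes of Hspa1a (-2.65), Hspa1b (-2.63), Hspa8 (-3.17), Hsp90aa1 (-3.23), Hsph1 (-2.89) and Dnajb1 (-3.05) there. By its construction, pan-T scaling also turned Hsf1 in tumor pTreg over LN Treg (1.08) and, in tumor tTreg over LN Treg, Hsf1 (4.40), Hspa12a (2.90), Chordc1 (4.33), Cdc37l1 (4.51), Dnaja4 (1.73), Dnajc27 (4.18) and Hsf4 (4.89).

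The log2 Hspe1 to Hspd1 ratio in tumor pTreg over LN Treg was -1.19 on expected counts in place of FPKM. Tumor tTreg showed a like shift between units. Mean Hspd1 was 210 CPM and 113 FPKM in LN Treg, 744 and 361 in tumor pTreg, and 866 and 418 in tumor tTreg. Mean Hspe1 was 90.8 CPM and 193 FPKM, 141 and 299, and 165 and 349 in that order. FPKM per CPM was thus lower in both tumor groups for Hspd1 and nearly level for Hspe1, and the cause was not tested. Same-numbered libraries of different groups showed no shared deviation (r from -0.0496 to 0.0526 over 10 pairs and 9621 genes). Differently numbered libraries ran from -0.159 to 0.235 over 37 pairs, so this check cannot tell whether the numbers pair libraries. Most of the 10 pairs hold an LN Treg library, which came from untreated mice and cannot share an animal with a tumor library. Same-numbered tumor pTreg and tTreg libraries had r of -0.0496, 0.017 and 0.0419. The replicate block below tied LN Treg libraries to tumor libraries by number too, so it does not settle pairing within tumors. With a replicate block, 7495 genes were called between the tumor groups, 13602 in tumor pTreg over LN Treg and 14065 in tumor tTreg over LN Treg, and no call among the 10 genes changed. The groups hold 3 to 5 libraries, and Hspb1 rests on 18 to 108 counts a library.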
